A study of Homo sapiens with 6 samples.

Results

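The genes described here are 48 genes of the contractile actin cytoskeleton and of focal adhesions, chosen by name for their ties to mechanical YAP signalling. A gene was kept when the mean of its 6 libraries was at least 0.5 FPKM, and 47 of the 48 were, out of 14770 genes that passed the same filter and 60612 in all. FPKM counts sequenced fragments relative to transcript length and library size, and the value of a gene is the sum of its transcripts. The gene below the filter was CNN1, the smooth-muscle calponin, which was listed at 0.03, 0.20 and 0.07 FPKM in Sh-NC and at 0, 0.02 and 0 FPKM in Sh-YAP1.

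RNA was taken on day 3 from MDA-MB-231 cells, an established human triple-negative breast cancer line. One group of 3 libraries expressed a control short hairpin RNA (Sh-NC, genotype labelled WT), and the other 3 a hairpin that targets YAP1 (Sh-YAP1). The study's figure legends call the expression stable, while its methods describe transfection of the hairpins and name no stable lines. The sources name 1 knockdown group and do not say whether each line was a clone or a pool. For these libraries they do not say whether the 3 of a group came from separate cultures, although the study states in general that experiments were repeated independently. If they came from 1 culture, the p-values measure technical spread.

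Non-muscle myosin II pulls on actin filaments, and focal adhesions carry that tension to the matrix through integrins, talin and vinculin. RhoA and its kinases ROCK1 and ROCK2 switch the motor on by keeping its light chains phosphorylated. Cell tension keeps YAP1, a coactivator without a DNA-binding domain of its own, in the nucleus, where it acts mainly through TEAD factors. The same tension depletes free actin monomers and so releases the MRTF coactivators to SRF, which binds the CArG box of many actin cytoskeleton genes.

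YAP1 was 28.1, 26.2 and 22.9 FPKM in Sh-NC and 3.35, 2.67 and 2.58 FPKM in Sh-YAP1, so each library matched its label. VIM was between 1645 and 2303 FPKM in every library, ESR1 reached at most 0.07 FPKM and PGR at most 0.01 FPKM, and ERBB2 lay between 14.3 and 18.1 FPKM. Among markers of other cell types, CD3E was listed at 0 in every library, CDH5 reached at most 0.04 FPKM, and COL1A1, the highest, lay between 3.64 and 8.32 FPKM. FPKM summed to between 467493 and 475116 per library, and the number of reads behind each value is unknown.

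The gene set was expressed at high levels. The mean over the 6 libraries had a median of 39.9 FPKM over the 47 members, against 7.34 FPKM over all genes tested, and 21 members lay above the 90th percentile. Levels ran from 1.34 FPKM for TAGLN to 1581 FPKM for ACTB. The members together held 1.62% ± 0.18 (SD, n = 3) of all FPKM in Sh-NC and 1.48% ± 0.11 (SD, n = 3) in Sh-YAP1, a difference within the spread (exact two-sided permutation test, p = 0.5).

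Knockdown of YAP1 came with lower levels of a few members spread over the contractile system. LIMA1, FLNC, ARHGEF17, VCL and MYH9 were lower in Sh-YAP1 at an adjusted p under 0.05, to between 63.9% and 76.7% of the Sh-NC mean, and FHL2 was higher, at 135%. Genes were tested with limma on log2(FPKM + 1), a scale on which changes of low genes look smaller, with Benjamini-Hochberg adjustment over all genes tested. The 5 members called lower were 10.6% of the 47, against 1.62% of all genes, and the 1 called higher was 2.13%, against 1.75% of all genes. At an unadjusted p under 0.05, 12 members (25.5%) were lower, against 11.1% of all genes, and 5 (10.6%) were higher, against 10.8%. In a bulk library, a lower level in every cell cannot be told apart from a loss in some of the cells.

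None of these 6 calls held when any 1 of the 6 libraries was left out. Their adjusted p (limma) then lay between 0.0581 and 0.143, and their direction stayed the same. Without the mean-variance trend FLNC, LIMA1 and ARHGEF17 were still called, without the filter on low values LIMA1 and ARHGEF17 were, and with the highest transcript of each gene in place of the sum, or with the replicate number as a block, none of the 6 was. VCL was also not called after quantile normalization (adjusted p = 0.0643, limma). The separation of the groups was seen in more members than the calls. The 3 Sh-YAP1 values lay below all 3 Sh-NC values in 17 members (36.2%), against 14.7% of all genes, and above them in 9 members (19.1%), against 14.6%. In the other 21 members the groups overlapped. The log2 fold change was below 0 in 33 members and above 0 in 14, with a range from -0.62 for LIMA1 to 0.59 for LIMS1. Its median was -0.11, and the median of all genes tested was -0.001. After quantile normalization the median of the members was -0.062. Without overlap, 12 members then lay lower and 10 higher, with 2121 and 2145 of the 14770 genes.

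**Figure D1:**
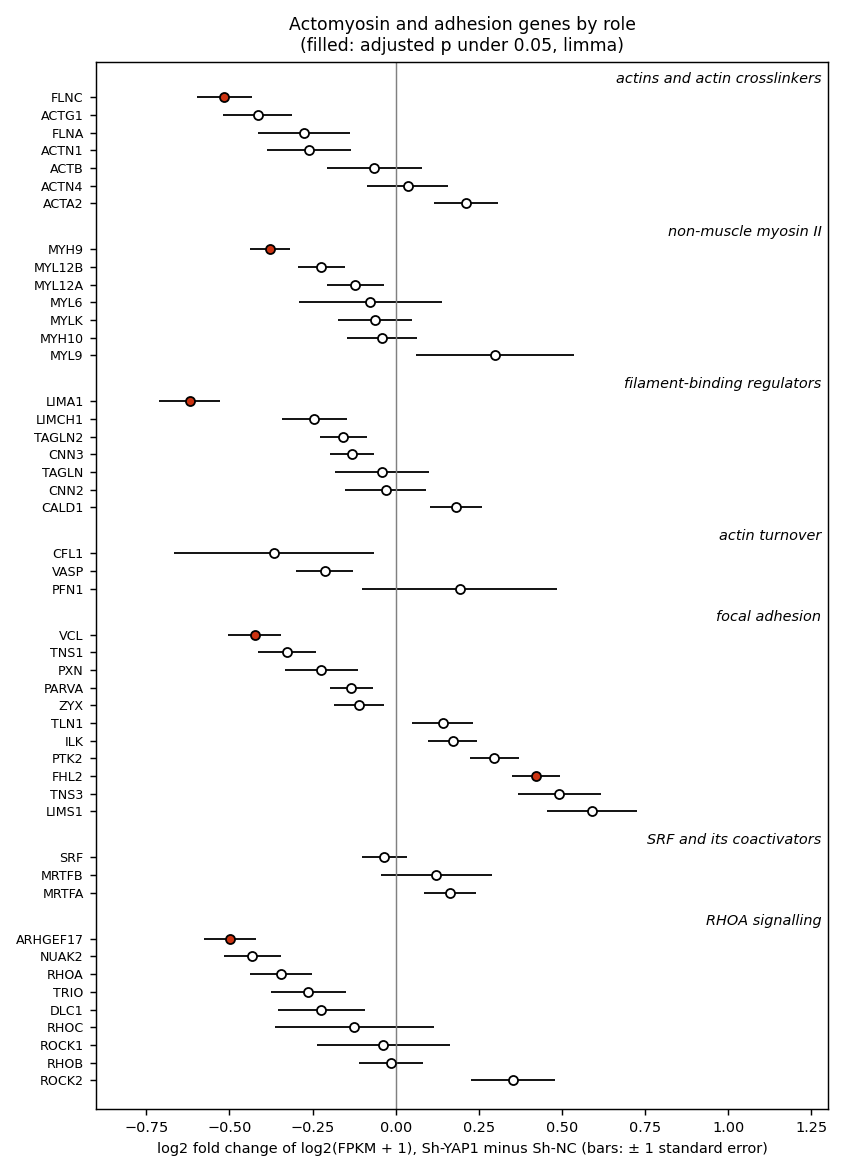
Log2 fold change of log2(FPKM + 1), Sh-YAP1 minus Sh-NC, for the 47 members grouped by role, with bars of 1 standard error and filled points at an adjusted p under 0.05 (limma). The 6 filled points are FLNC, MYH9, LIMA1, VCL and ARHGEF17 left of 0 and FHL2 right of 0, and the focal adhesion genes run from -0.42 (VCL) to 0.59 (LIMS1).

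Promoter sequences from RefSeq (GRCh38.p14, 250 bases before to 50 bases after a start site) were found for 40 of the 47 members, with 81 promoters. ARHGEF17, MYL9, ACTB, TAGLN, PARVA, PTK2 and DLC1 had no entry. The core of the TEAD motif, GGAATG on either strand, was found in 27.2% of the members' promoters and in 14.0% of all 35116 promoters. The 4 members called lower that had an entry (MYH9, FLNC, VCL and LIMA1) each held it, in 4 of their 5 promoters. By gene it was found in 15 of the 36 other members with an entry (41.7%) and in 16.7% of all genes. By promoter it was found in 23.7% of those of the other members, so it was not limited to the members that were called. The shares by gene are not like for like, since these 36 members had 76 promoters while 27305 genes in all had 35116. The windows below show the matches of the 4 members called lower, and those of NUAK2. Each has 30 bases on the strand of the gene, with the core in capitals.
MYH9, chr22:36388020-36388049, minus strand: ggctcccggctgGGAATGgtcccgcggctc
FLNC, chr7:128830291-128830320, plus strand: cgggccgggcggCATTCCtgggaggccggc
VCL, chr10:73997933-73997962, plus strand: gcccctcccttaGGAATGggggaggggcgg
LIMA1, chr12:50202172-50202201, minus strand: gagatggggtcaGGAATGagttgttgggct
NUAK2, chr1:205321925-205321954, minus strand: tcccctagtcccCATTCCtggtgggcgggt
NUAK2, chr1:205321746-205321775, minus strand: ttataacaacttGGAATGctgtgctttact

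The core began 16 bases before the start site in LIMA1, 70 bases before it in MYH9, 103 in FLNC and 171 in VCL, so the distance was not shared. NUAK2 held 2 cores, 197 and 18 bases before its start.

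The CArG box, searched on both strands, was found in 12.3% of the members' promoters and in 1.29% of all promoters. The members were chosen by name as actin, myosin, SRF, MRTF and adhesion genes, so this difference describes the list and is no test. By gene it was found in 8 of the 40 members and in 1.6% of all genes, shares that are again not like for like. Of these 8 members, ACTG1 (-0.41), FLNA (-0.28), ACTN1 (-0.26), MYLK (-0.06), SRF (-0.03) and CNN2 (-0.03) had a log2 fold change below 0. ROCK2 (0.35) and FHL2 (0.42) lay above 0. None of the 4 members that were called lower and had an entry held a CArG box, and 4 genes are too few to read a link from this. SRF and FHL2 are shown because SRF had 2 boxes within 30 bases and FHL2 was the member called higher, with the boxes in capitals.
SRF, chr6:43171239-43171268, plus strand: CCATATAAGGagcggcctcgCCATAAAAGG
FHL2, chr2:105438595-105438624, minus strand: aatctggagaCCTTAAAAGGcacgtgggag
FHL2, chr2:105399091-105399120, minus strand: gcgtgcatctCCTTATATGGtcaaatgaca

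FHL2 has 4 promoters in the table, of which 2 overlap and share a box. Another of them held a TEAD core 27 bases before its start. A match is a description of the letters in a window, and binding was not measured.

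Among the 7 actins and actin crosslinkers, 1 was called lower and none higher (1.62% and 1.75% of all genes were), with a median log2 fold change of -0.26. FLNC, a filamin that crosslinks actin filaments, was 21.8, 19.0 and 19.98 FPKM in Sh-NC and 13.1, 14.5 and 14.0 FPKM in Sh-YAP1. Each Sh-YAP1 library lay below each Sh-NC library, and the means were 20.3 ± 1.43 and 13.9 ± 0.73 FPKM (SD, n = 3). On the log2 scale the change was -0.52 with a standard error of 0.08 (limma, adjusted p = 0.0298).

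ACTB, the cytoplasmic beta-actin, was 1353, 1964 and 1557 FPKM in Sh-NC and 1502, 1439 and 1673 FPKM in Sh-YAP1. The groups overlapped, and replicate 2 of Sh-NC was the highest library. On the log2 scale the change was -0.06 with a standard error of 0.14 (limma, adjusted p = 0.832), and it was 0.08 without that library. ACTG1, the gamma-actin, had a log2 fold change of -0.41 with an adjusted p of 0.0843 (limma) and no overlap between the groups. After quantile normalization it was called at -0.33 (adjusted p = 0.0446, limma), and with the highest transcript of ACTG1 alone the value was -0.10. ACTN1 (-0.26), FLNA (-0.28) and ACTN4 (0.04) overlapped between the groups, and ACTA2, the smooth-muscle actin at a mean of 1.87 FPKM in Sh-NC, had 0.21 without overlap.

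Of the 7 non-muscle myosin II genes, 1 was called lower and none higher (1.62% and 1.75% of all genes were), with a median of -0.08. MYH9, the heavy chain of myosin IIA, was 175, 176 and 164 FPKM in Sh-NC and 129.9, 133 and 132 FPKM in Sh-YAP1. The 3 knockdown libraries lay close together and below all controls. On the log2 scale the change was -0.38 with a standard error of 0.06 (limma, adjusted p = 0.0289). MYH10, the heavy chain of myosin IIB, had a log2 fold change of -0.04 with overlapping groups, at a mean of 13.7 FPKM in Sh-NC.

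MYL9, a regulatory light chain, was 26.0, 26.1 and 23.2 FPKM in Sh-NC and 40.3, 35.9 and 20.5 FPKM in Sh-YAP1. Replicates 1 and 2 of Sh-YAP1 lay above every control and replicate 3 below every control. On the log2 scale the change was 0.30 with a standard error of 0.24 (limma, adjusted p = 0.513), a difference within the spread. The light chains MYL12B (-0.22, no overlap), MYL12A (-0.12) and MYL6 (-0.08) and the kinase MYLK (-0.06), which phosphorylates the regulatory light chains, were not called.

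Of the 7 filament-binding regulators tested, 1 was called lower and none higher (1.62% and 1.75% of all genes were), with a median of -0.13. LIMA1, which bundles and stabilizes actin filaments, was 27.4, 31.0 and 32.5 FPKM in Sh-NC and 19.8, 17.9 and 20.4 FPKM in Sh-YAP1. The groups were apart, with means of 30.3 ± 2.60 and 19.4 ± 1.29 FPKM (SD, n = 3). Its log2 fold change of -0.62 (standard error 0.09, adjusted p = 0.0246, limma) was the lowest among the members. TAGLN2 (-0.16) and CNN3 (-0.13) lay lower in Sh-YAP1 without overlap and CALD1, caldesmon, lay higher without overlap (0.18), while LIMCH1 (-0.25), TAGLN (-0.04) and CNN2 (-0.03) overlapped. None of these was called.

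The 3 actin turnover genes were not called. VASP, which promotes filament elongation, had a log2 fold change of -0.21 without overlap. CFL1, cofilin, which severs filaments, had -0.37 with a standard error of 0.30, and 1 library set that value, since replicate 2 of Sh-NC was at 928 FPKM against 406 to 450 FPKM in the other 5. Without it the log2 fold change was 0.01. PFN1, profilin, had 0.19, and -0.13 without replicate 2 of Sh-YAP1, which was at 1345 FPKM.

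The 11 focal adhesion genes divided in direction, with 1 called lower and 1 called higher, 4 (36.4%) below the controls without overlap and 5 (45.5%) above them. Over all genes these shares were 1.62% and 1.75% for calls and 14.7% and 14.6% without overlap. VCL, vinculin, which links talin to actin under tension, was 89.2, 90.1 and 84.9 FPKM in Sh-NC and 70.0, 67.0 and 59.6 FPKM in Sh-YAP1. The highest knockdown library lay below the lowest control. On the log2 scale the change was -0.42 with a standard error of 0.08 (limma, adjusted p = 0.0447).

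FHL2, a LIM-domain protein found at adhesions and in the nucleus, was 25.8, 23.5 and 23.4 FPKM in Sh-NC and 31.7, 33.7 and 33.0 FPKM in Sh-YAP1. All 3 knockdown libraries lay above all controls, and on the log2 scale the change was 0.42 with a standard error of 0.07 (limma, adjusted p = 0.0349). LIMS1, an adaptor that joins ILK and a parvin at adhesions, was 8.66, 10.6 and 9.41 FPKM in Sh-NC and 12.2, 16.6 and 16.1 FPKM in Sh-YAP1. Its log2 fold change of 0.59 was the highest among the members, with a standard error of 0.14 and an adjusted p of 0.0725 (limma), so it was not called.

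TNS3, a tensin, which links integrin tails to actin, was 37.0, 31.7 and 30.1 FPKM in Sh-NC and 50.7, 39.9 and 49.9 FPKM in Sh-YAP1. The groups did not overlap, and on the log2 scale the change was 0.49 with a standard error of 0.12 (limma, adjusted p = 0.0869). With the highest transcript of TNS3 alone the value was -0.06. Its relative TNS1 had -0.33 (adjusted p = 0.0985, limma) with the groups apart in the other direction. PTK2, the focal adhesion kinase (0.30, adjusted p = 0.0823, limma), and ILK, the integrin-linked kinase (0.17), lay above the controls, and PXN, paxillin (-0.22), and PARVA, alpha-parvin (-0.13), lay below them. TLN1, talin (0.14), and ZYX, zyxin (-0.11), overlapped.

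SRF and its coactivators were not called. SRF was 18.0, 19.2 and 17.9 FPKM in Sh-NC and 17.8, 17.9 and 18.0 FPKM in Sh-YAP1, with a log2 fold change of -0.03 (standard error 0.07, adjusted p = 0.81, limma). MRTFA was 6.17, 6.74 and 6.67 FPKM in Sh-NC and 7.07, 7.65 and 7.55 FPKM in Sh-YAP1, higher in all 3 knockdown libraries by a log2 fold change of 0.16 (adjusted p = 0.287, limma), which was -0.25 with its highest transcript alone. MRTFB was 3.33, 5.27 and 3.90 FPKM in Sh-NC and 5.17, 3.80 and 4.79 FPKM in Sh-YAP1, with overlapping groups and a log2 fold change of 0.12 (adjusted p = 0.716, limma). These are transcript levels, and MRTF activity depends on its location, which was not measured.

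Of the 9 genes of RHOA signalling, 1 was called lower (1.62% of all genes were), 5 (55.6%) lay below the controls without overlap, against 14.7% of all genes, and 1 (11.1%) above, against 14.6%. The median was -0.22. ARHGEF17, a guanine nucleotide exchange factor for RHOA, was 11.4, 12.5 and 11.9 FPKM in Sh-NC and 7.74, 8.35 and 8.34 FPKM in Sh-YAP1. The groups were well apart, and on the log2 scale the change was -0.50 with a standard error of 0.08 (limma, adjusted p = 0.0268).

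NUAK2, a kinase that acts on the myosin phosphatase and is a known YAP target, was 2.41, 2.56 and 2.40 FPKM in Sh-NC and 1.57, 1.56 and 1.56 FPKM in Sh-YAP1. It stood at 63.6% of the Sh-NC mean with almost no spread within Sh-YAP1. On the log2 scale it changed by -0.43, with a standard error of 0.08 (limma, adjusted p = 0.0513), just outside the threshold, and it was not called with any 1 library left out (adjusted p from 0.107 to 0.145, limma). It was called under 4 of 16 alternative settings, among them a pseudocount of 0.01, with which it was -0.65, but not 0.1.

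RHOA, the GTPase itself, was 297, 248 and 308 FPKM in Sh-NC and 221, 227 and 220.0 FPKM in Sh-YAP1. All 3 knockdown libraries lay below the controls, and on the log2 scale the change was -0.34 with a standard error of 0.09 (limma, adjusted p = 0.102). TRIO, an exchange factor (-0.26), and DLC1, a GTPase-activating protein that turns RHOA off (-0.22), also lay below the controls, and ROCK2 lay above them (0.35, adjusted p = 0.174, limma). RHOC (-0.12), ROCK1 (-0.04) and RHOB (-0.01) overlapped.

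**Figure D2:**
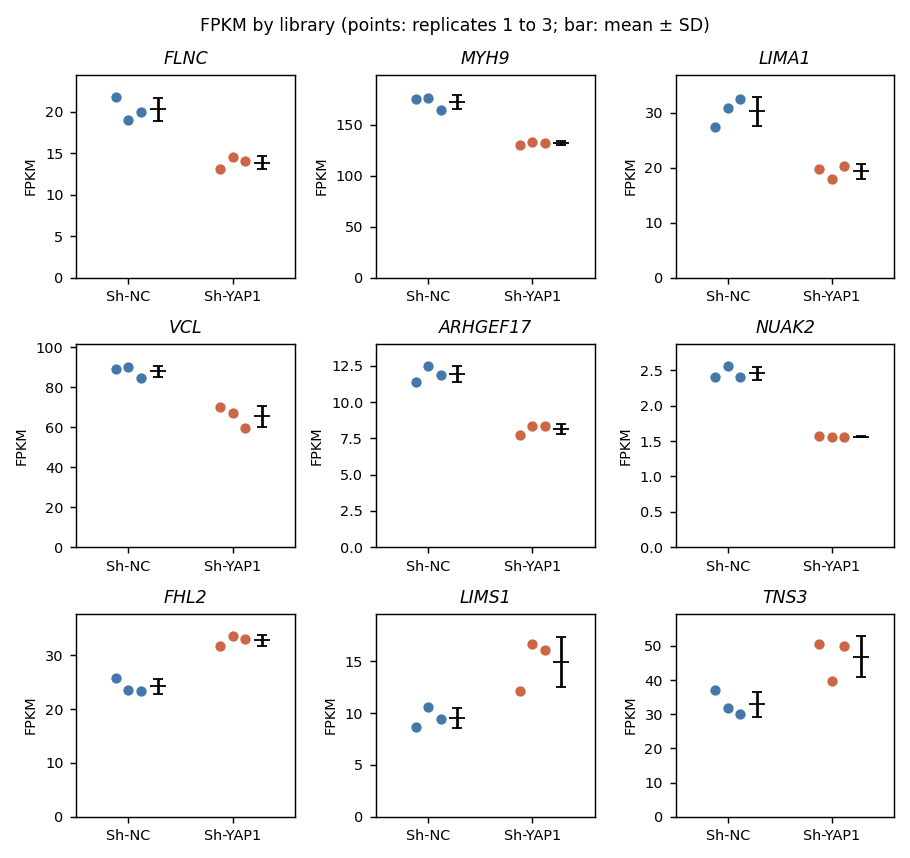
FPKM of 9 members in each library, with points for replicates 1 to 3 and a bar for the mean ± SD of the 3. FLNC, MYH9, LIMA1, VCL, ARHGEF17 and NUAK2 are lower in every Sh-YAP1 library than in any Sh-NC library, and FHL2, LIMS1 and TNS3 are higher in every one.

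Ratios within a library show whether related members moved in proportion. Of 14 pairs, CNN1/CNN2 could not be formed, and in 7 of the other 13 the groups did not overlap. No such share was formed over other pairs of genes. Among all single genes, 14.7% lay lower and 14.6% higher without overlap, and several pairs hold members that were themselves apart. The log2 ratio of TNS1 to TNS3 was -1.71, -1.39 and -1.50 in Sh-NC and -2.41, -2.20 and -2.58 in Sh-YAP1, a difference of -0.86, which was -0.28 with the highest transcript alone. MYH10/MYH9 differed by 0.34 and ROCK2/ROCK1 by 0.44, both higher in Sh-YAP1. Replicate 3 of Sh-NC widened the difference of ROCK2/ROCK1, which was 0.12, 0.10 and -0.59 in Sh-NC and 0.36, 0.29 and 0.30 in Sh-YAP1. ACTG1/ACTB (-0.35), ACTN1/ACTN4 (-0.30), FLNC/FLNA (-0.27) and MYL12B/MYL12A (-0.10) were lower. For each of these 7 pairs p was 0.1 by exact permutation (two-sided), the lowest value 3 libraries against 3 can reach, and 0.186 after adjustment over the 13 pairs.

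Within the actins (ACTB, ACTG1 and ACTA2), ACTB held 62.1% ± 2.4 of the FPKM in Sh-NC and 67.6% ± 2.7 in Sh-YAP1 (SD, n = 3; exact two-sided permutation test, p = 0.1). ACTB and ACTG1 share 91.3% of their coding bases and MYL12A and MYL12B 95.7%, so reads may have been divided between them by the quantifier, and the split within these pairs is uncertain. With the highest transcript alone in place of the sum, the difference of ACTG1/ACTB was -0.02 and that of ACTN1/ACTN4 was 1.87.

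**Figure D3:**
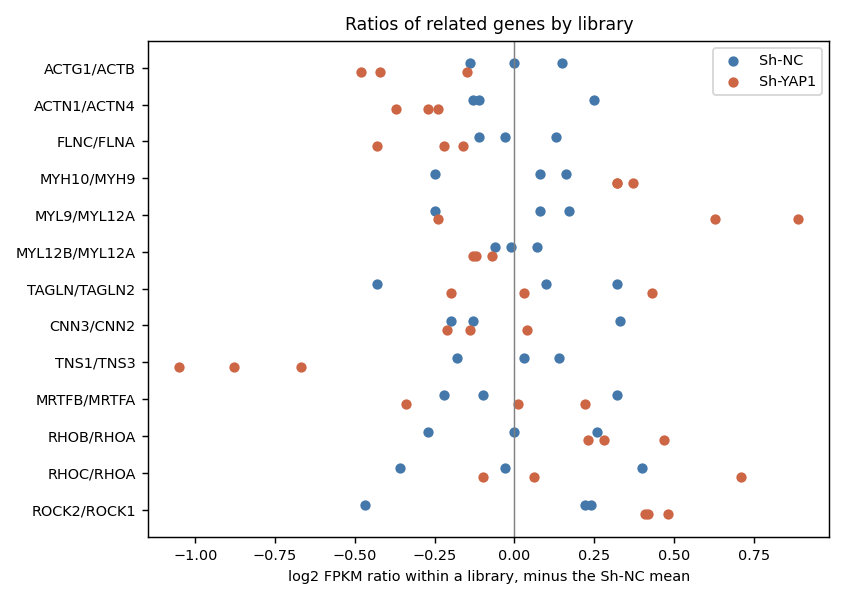
Log2 ratio of the FPKM of related members in each library, centred on the Sh-NC mean of the pair. All 3 Sh-YAP1 points of TNS1/TNS3 lie left of the Sh-NC points, those of MYH10/MYH9 and ROCK2/ROCK1 lie right of them, and the MYL9/MYL12A points of Sh-YAP1 spread widely.

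Each gene value is a sum of deposited transcript values, which carry no transcript name. Members had 1 to 57 of them, with a median of 12, and the highest held a median of 62.9% of the gene. SRF, RHOB and NUAK2 had 1. Of the 44 members with more than 1 transcript, 22 kept their direction with any 1 transcript left out. Those called gave different pictures here. LIMA1 stayed between -0.64 and -0.42, ARHGEF17 between -0.62 and -0.36 and MYH9, with 97.0% in 1 transcript, between -0.38 and -0.13. FLNC lay between -0.72 and -0.07, FHL2 between 0.04 and 0.54, and VCL between -1.69 and 0.11.

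Among 77655 transcripts, 0.0515% passed an adjusted p of 0.05 (limma), and 2 of those that passed belonged to members. One was the highest transcript of LIMCH1, an activator of non-muscle myosin II, which was 20.4, 14.7 and 21.3 FPKM in Sh-NC with a listed value of 0 for every Sh-YAP1 library (adjusted p = 0.00583, limma). The third transcript of LIMCH1 was 3.65, 17.1 and 8.42 FPKM in Sh-NC. It was also listed at 0 in every Sh-YAP1 library but was not called (adjusted p = 0.249, limma). The gene as a whole was 34.5, 42.3 and 41.1 FPKM in Sh-NC and 30.9, 33.0 and 34.7 FPKM in Sh-YAP1, since some other transcripts were higher in Sh-YAP1. The other transcript called was the fifth of TRIO by level. It was listed at 0 in all 3 Sh-NC libraries and at 6.46, 6.17 and 4.49 FPKM in Sh-YAP1 (adjusted p = 0.026, limma). The TRIO transcript was not called with any 1 library left out, nor that of LIMCH1 without replicate 1 of Sh-YAP1, and neither was with the replicate number as a block. A listed 0 can be a failed estimate, so no fold is given.

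The 2 transcripts of MYL9 had the opposite order in replicates 1 and 2 of Sh-YAP1 from that in the controls, and the control order in replicate 3. The first was 22.6, 24.4 and 22.2 FPKM in Sh-NC and 4.58, 5.17 and 14.5 FPKM in Sh-YAP1, and the second was 3.40, 1.74 and 0.95 FPKM in Sh-NC and 35.8, 30.8 and 6.05 FPKM in Sh-YAP1. The groups were apart for each, in opposite directions, with log2 fold changes of -1.57 and 2.82 (adjusted p = 0.582 and 0.554, limma). Such shifts were also seen inside a group. The highest transcript of CFL1 was 305, 0.08 and 298 FPKM in Sh-NC, and that of VCL was 65.6, 49.5 and 0.15 FPKM in Sh-YAP1, where its second transcript was 0.06, 14.4 and 57.2 FPKM. The total of VCL varied far less than either transcript.

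**Figure D4:**
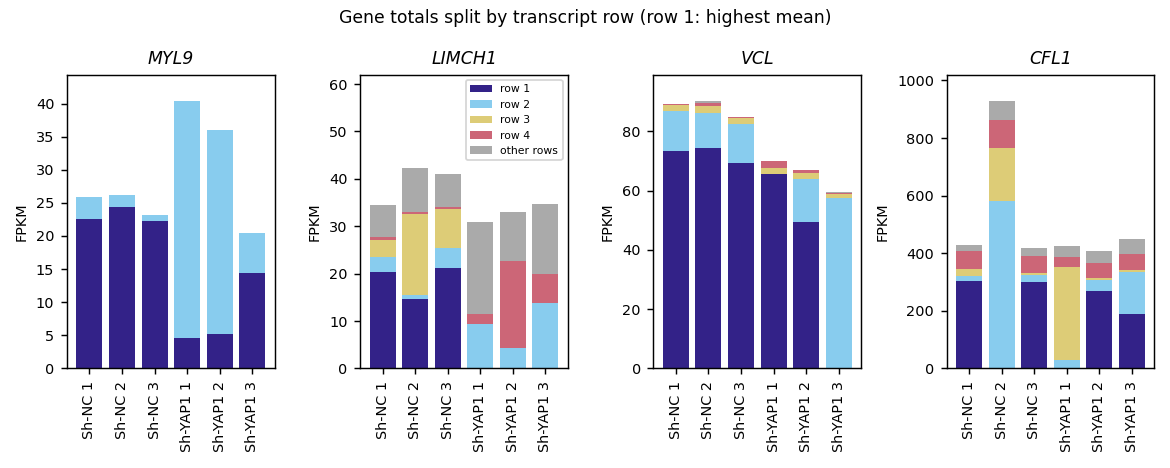
FPKM of MYL9, LIMCH1, VCL and CFL1 in each library, stacked by the deposited transcript rows of the gene, with row 1 the highest by mean over the 6 libraries. Row 1 of LIMCH1 is absent from all 3 Sh-YAP1 bars. Rows 1 and 2 of VCL exchange in Sh-YAP1 replicate 3, where the total is 59.6 FPKM, against 70.0 and 67.0 FPKM in replicates 1 and 2.

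The rest of the pathway was read from 118 further genes, of which 107 passed the filter. Of these, 2 were called lower and 2 higher, 1.87% in each direction, near the shares of all genes. Their median log2 fold change was -0.06. Of 37 other actin assembly genes, 2 (5.41%) were called lower, against 1.62% of all genes, and none higher. WASF2, which activates the Arp2/3 complex, was 28.4, 29.2 and 27.3 FPKM in Sh-NC and 20.4, 20.7 and 19.8 FPKM in Sh-YAP1 (log2 fold change -0.46, adjusted p = 0.0237, limma). The groups were apart.

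Of 35 other regulators of RHOA and contractility, 2 (5.71%) were called higher, against 1.75% of all genes, and none lower. LIMK1, the kinase that inactivates cofilin, was 18.2, 18.2 and 17.5 FPKM in Sh-NC and 28.7, 30.9 and 23.9 FPKM in Sh-YAP1 (log2 fold change 0.60, adjusted p = 0.0354, limma). ARHGAP18, which inactivates RhoA, was 12.0, 13.5 and 14.0 FPKM in Sh-NC and 20.6, 19.5 and 20.2 FPKM in Sh-YAP1 (log2 fold change 0.58, adjusted p = 0.0232, limma). These 4 calls rest on all 6 libraries, since at most 1 of the 118 genes was called when a library was left out. None of the 32 other adhesion adaptors tested was called, with 3 (9.38%) lower and 1 (3.12%) higher at an unadjusted p under 0.05 (limma), against 11.1% and 10.8% of all genes. Without overlap, 9 of the 32 (28.1%) lay lower, against 14.7% of all genes, and 1 higher (3.12%), against 14.6%. Of 11 smooth-muscle contractile genes outside the members, 3 passed the filter and none was called, with 1 lower and 1 higher at an unadjusted p under 0.05 (limma), where 3 genes are too few to read against the shares of all genes.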

How the data were processed

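RNA was sequenced from 3 Sh-NC and 3 Sh-YAP1 libraries of MDA-MB-231 cells. The study's methods cite a different series record for their sequencing, done by LC-Bio. The provider, and the stable expression stated in the figure legends, hold for these libraries only if the experiment is the same. Cell line and hairpin in the labels imply that it is. The authors deposited FPKM for 229420 transcripts per library, with a gene identifier. The submitters' processing notes name HISAT2 2.0, Bowtie 0.12.2 and hg19, and the quantifier and annotation are not given in the sources used here. Depth is unknown, so errors come from the spread between libraries. Of 60612 gene identifiers, 60401 had a symbol. FPKM was summed per gene, genes averaging 0.5 FPKM or more (transcripts 0.1) were kept, and log2(FPKM + 1) was compared with limma 3.58.1 (lmFit, eBayes with trend) in R 4.3.3, tested first on simulated data. Single values were compared by exact permutation. Members and lists were chosen with earlier results of these data known. Values in every library are given for members with an adjusted p under 0.05, filled up to 8 by size among those without overlap, and for ACTB, MYH9, MYL9, SRF, MRTFA, MRTFB, NUAK2, ARHGEF17 and RHOA. CFL1, PFN1, LIMCH1, TRIO and VCL were chosen for the transcript values after these were seen. Same-numbered libraries were checked for pairing. Alternatives covered the pseudocount, scaling, filters, trend, transcripts, block and libraries left out. Some genes of the wider lists and markers are not reported here. Coding identity came from GENCODE 29.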

Additional observations from a re-analysis of the deposited data

How the results depend on the processing

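The 47 members tested and the 4 wider genes called gave 816 comparisons of a gene under an alternative setting. Direction and call were the same in 685, a call was lost in 89 and gained in 6, and the direction reversed in 36. Most of these genes had no call to lose. Only the 6 members and 4 wider genes called could lose one, and each was called in 5 (VCL) to 9 (ARHGAP18) of its 16 alternatives. The replicate numbers did not pair the libraries (correlations of deviations across genes -0.028, 0.062 and 0.004, with 2 of 6 libraries closest to their own number), and with the replicate block 1 gene was called in place of 499, with 0 members lower, 0 higher, 0 wider genes and 0 member transcripts, while 2779 genes had an unadjusted p under 0.05. Without a filter 232 genes, 2 members lower, 0 higher and 2 wider genes were called, and without the trend 0 members were called higher. Leaving out 1 library gave 78 to 171 genes, 0 members in either direction, 0 to 1 wider genes, 0 to 1 member transcripts and a member median of -0.155 to -0.076. Quantile normalization gave a member median of -0.062 and MYL6 0.02. The highest transcript alone gave 96 genes, 1 member lower (LIMCH1), 0 higher, 0 wider genes, 3 members higher without overlap and a YAP1 log2 fold change of -1.97. It reversed ACTN1 (1.81), ACTN4 (-0.03), FLNA (0.64), MYH10 (0.01), MYL9 (-1.57), MYLK (0.46), TAGLN (0.13), CNN2 (1.26), CNN3 (1.08), CALD1 (-0.01), TLN1 (-0.09), TNS3 (-0.06), MRTFA (-0.25), RHOC (1.48), ACTN1/ACTN4 (1.87), MYL9/MYL12A (-1.62) and MRTFB/MRTFA (0.92). With 1 library left out, the log2 fold change crossed 0 for ACTB (-0.19 to 0.08), ACTN4 (-0.05 to 0.16), MYH10 (-0.14 to 0.05), MYL6 (-0.28 to 0.09), TAGLN (-0.15 to 0.03), CNN2 (-0.15 to 0.04), CFL1 (-0.56 to 0.01), PFN1 (-0.13 to 0.40), RHOB (-0.07 to 0.03), RHOC (-0.38 to 0.04) and ROCK1 (-0.18 to 0.17), and the log2 ratio for TAGLN/TAGLN2 (-0.12 to 0.25), CNN3/CNN2 (-0.20 to 0.06), MRTFB/MRTFA (-0.16 to 0.13) and RHOC/RHOA (-0.02 to 0.42). The cause of these changes was not tested, and some of these settings use fewer libraries or transcripts. Depth could not be used to set a limit, since the values carry no counts.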
